A study of Mus musculus with 7 samples.

Results

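Clone 4 is 1 of the 2 engineered mouse clones in this series, and its 4 libraries, of 7 in all, compare inner cell masses held for 4 h in 4-hydroxytamoxifen with others held in vehicle. The members were chosen by the label of the clone and of the treatment alone: 2 libraries received 250 nM 4-hydroxytamoxifen (4OHT) for 4 h and 2 received the ethanol vehicle for 4 h, which the labels call 0 h. All 4 came from embryos of genotype Sox2Cre;CRAFR26, flushed from the oviduct at embryonic day 2.5, cultured for 24 h in KSOM containing the FGF receptor inhibitor PD173074 at 250 nM, and labelled as E3.5 epiblast. Each library pooled 10 inner cell masses whose trophectoderm had been removed by immunosurgery, and was made from 2 ng of RNA. The construct is a tamoxifen-inducible cRAF, and the question it serves is which genes respond when ERK is switched on quickly and evenly in pluripotent cells. Several things limit the groups as a model: clone 4 is a single targeted clone, every library is a pool, the receptor inhibitor was present in the vehicle libraries too, none of the 7 libraries is labelled as 4OHT without the construct, and Sox2Cre is active in the epiblast, so that other cells of the inner cell mass need not carry the active allele.

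RAF kinases phosphorylate MEK, which phosphorylates ERK; ERK then acts on transcription factors of the ETS and AP-1 families and on serum response factor, and switches on immediate early genes within minutes and feedback inhibitors such as the Sprouty and dual-specificity phosphatase genes somewhat later. In the mouse blastocyst, FGF signalling through ERK directs inner cell mass cells to primitive endoderm, while cells with little ERK activity become naive epiblast; the trophectoderm forms the outer wall. Primitive endoderm cells make the first basement membrane of the embryo from laminins and type IV collagens.

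The 4 libraries held between 22981498 and 42294719 counts, the smallest of them tamoxifen library 2. In levels across genes the 2 vehicle libraries were less alike than libraries of different treatment: Pearson's r of log2 CPM (counts scaled to library size) was 0.945 between the vehicle pair, 0.961 between the tamoxifen pair and 0.949 to 0.954 between a vehicle and a tamoxifen library. Vehicle library 1 stood apart on the first principal component, at -85.7 against 22 to 35.5 for the others. All 12 markers of the labelled cell type, epiblast, reached 10 counts in every library. Markers of other cell types did so too, 7 of 10 for primitive endoderm. All 11 trophectoderm markers were present too, with a summed level of 10480 and 7748 CPM in the vehicle libraries and 7301 and 6176 CPM in the tamoxifen libraries. The part that trophectoderm RNA plays in the results was not tested. Of 13 markers of cells from outside the embryo, 2 were present throughout, Cd68 and Pecam1, while Hbb-bs, Hbb-bt, Ptprc and Alb were at 0. RNA of female and of male cells was present in every pool, at levels that differed: Xist, expressed from the inactive X of females, measured 88.4 and 124 CPM with vehicle and 77.2 and 37.6 CPM with tamoxifen, and the Y-linked Ddx3y 47.0 and 30.9 CPM against 38.4 and 80.0 CPM. The part of sex in the results was not tested.

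In edgeR's quasi-likelihood test, 0 of 16060 genes reached an adjusted p under 0.05 (0% called), so that no gene is written below as having risen or fallen; the smallest adjusted p was 0.201. Before adjustment, 1264 genes (7.87%) had a p under 0.05, of which 568 (3.54%) were on the higher and 696 (4.33%) on the lower side in tamoxifen libraries. DESeq2 called 140 of the 16060 genes, 51 of them higher. Without vehicle library 1 edgeR called 250 genes, without vehicle library 2 it called 309, and without tamoxifen library 1 or 2 it called 0 (580 and 552 at an unadjusted p under 0.05); the lone vehicle library or tamoxifen library is then taken to vary like the other group. The labels do not say whether the 2 libraries of a group came from separate matings or days, so that p-values measure only the spread between these libraries. With 2 libraries against 2, an exact permutation test of a single value cannot give a two-sided p below 0.3333.

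The genes below are therefore described by whether their 4 values overlap. Both tamoxifen values lay above both vehicle values for 3110 genes (19.4%), and below both for 3234 genes (20.1%), 39.5% together. A member that does not overlap is thus common among all genes, and counts of list members below are to be read beside these shares. A stricter description is a gap of at least 1.5-fold between the nearest values of the 2 groups, found for 654 genes in the higher direction (4.07%) and 543 in the lower (3.38%). Values are in CPM, scaled by TMM, and are given for libraries 1 and 2 of each group in that order. CPM does not correct for transcript length, so levels are compared between libraries and not between genes. In pooled tissue, fewer cells of a type and less RNA per cell cannot be told apart.

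**Figure D1:**
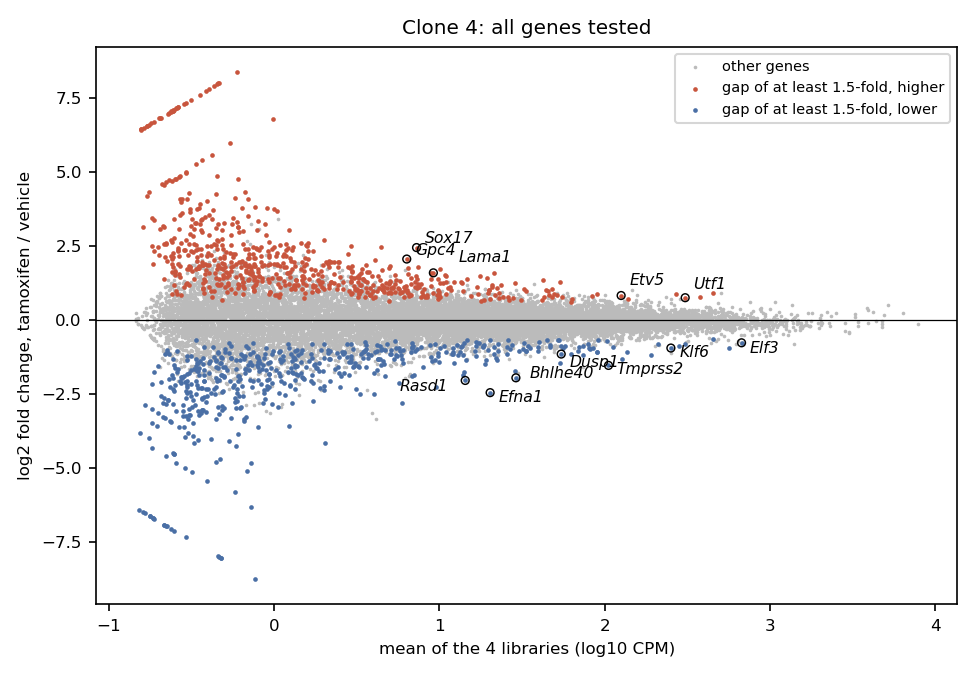
Each point is 1 of 16060 genes, with its mean level over the 4 clone 4 libraries (log10 CPM) on the x axis and its log2 fold change, tamoxifen over vehicle, on the y axis; coloured genes have a gap of at least 1.5-fold between the groups, 654 higher and 543 lower. The widest fold changes lie at low levels, where the diagonal rows of points are genes with no counts in 1 group, and the circled genes are among those named in the text.

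The 3 genes with the smallest p-values were all lower with tamoxifen. Efna1 (chr3:89271733-89281142, minus strand), which encodes ephrin A1, a membrane-bound ligand of Eph receptors, measured 35.7 and 32.8 CPM with vehicle and 5.89 and 6.69 CPM with tamoxifen. The tamoxifen values of Efna1 lay 4.91-fold below the nearest vehicle value, at a log2 fold change of -2.45 ± 0.25 (SE) and an adjusted p of 0.201 in edgeR. Tmprss2 (chr16:97564682-97611195, minus strand), a transmembrane serine protease of epithelia, measured 153 and 161 CPM with vehicle against 52.9 and 55.9 CPM with tamoxifen. The groups for Tmprss2 stood 2.74-fold apart, with a log2 fold change of -1.53 ± 0.16 (SE) and an adjusted p of 0.201. Bhlhe40 (chr6:108660629-108666925, plus strand), a transcriptional repressor of the clock and hypoxia responses, measured 48.4 and 43.9 CPM against 11.8 and 12.2 CPM, a log2 fold change of -1.95 ± 0.22 (SE) with an adjusted p of 0.245. In all 3 genes each pair of replicates was close and the groups were far apart. Picking genes by the smallest p-values favours this pattern, so it adds no support for them. On the joint scale of 7 libraries, the clone 8 vehicle library was below both clone 4 vehicle libraries for all 3. It held 8.97 CPM for Efna1, 68.1 CPM for Tmprss2 and 7.69 CPM for Bhlhe40. Efna1 and Tmprss2 were the 2 genes that edgeR called when genes averaging fewer than 50 counts were left out.

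By an unadjusted p under 0.05, a gap of at least 1.5-fold and 10 CPM or more on average in whichever group was higher, 186 protein-coding genes stood out, 83 higher and 103 lower. Among the 8 with the lowest fold changes, Rasd1, a small RAS-like G protein, measured 22.996 and 23.1 CPM with vehicle and 6.03 and 5.19 CPM with tamoxifen (log2 fold change -2.04 ± 0.28 SE). Phlda2, an imprinted gene that restrains placental growth, measured 3.72 and 17.0 CPM against 1.38 and 1.59 CPM, and Tnfrsf9, a TNF receptor, 24.5 and 6.81 CPM against 2.96 and 3.64 CPM. The vehicle pair of Phlda2 and of Tnfrsf9 differed widely within itself, so their folds rest mostly on 1 vehicle library each: the log2 fold change of Phlda2 was -3.52 without vehicle library 1 and -1.32 without vehicle library 2, and that of Tnfrsf9 -1.05 and -2.89. S100a14, an epithelial calcium-binding protein, measured 27.7 and 15.7 CPM against 4.91 and 7.33 CPM. Slc16a5, of the monocarboxylate transporter family, measured 9.59 and 12.0 CPM against 1.92 and 3.94 CPM, and Trove2, which encodes the Ro60 RNA-binding protein, 9.02 and 12.8 CPM against 2.14 and 3.99 CPM.

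In the higher direction, the cell-surface proteoglycan gene Gpc4 (chrX:52053021-52165252, minus strand) measured 2.06 and 2.83 CPM with vehicle and 9.86 and 10.6 CPM with tamoxifen. Its groups stood 3.48-fold apart, with a log2 fold change of 2.07 ± 0.39 (SE). Gpc4 is X-linked. Xist was lower with tamoxifen without overlap, while the Y-linked Ddx3y overlapped, and the part of sex in the values of Gpc4 was not tested. Glypican 4 binds growth factors, FGF and Wnt ligands among them. Grin1, a subunit of the NMDA receptor, measured 2.97 and 8.18 CPM against 14.3 and 17.6 CPM, and Hap1, the huntingtin-associated protein, 10.9 and 7.46 CPM against 20.4 and 31.3 CPM. Kndc1 measured 6.29 and 5.10 CPM against 11.7 and 20.7 CPM, and Dop1b 4.49 and 3.11 CPM against 9.76 and 11.7 CPM. Sox17, Lama1 and Il6st complete the 8 and are described with their lists.

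The feedback inhibitors of the pathway did not move together. Of 12 genes tested, 2 lay higher without overlap (16.7%, beside 19.4% of all genes) and 4 lower (33.3%, beside 20.1%). The median log2 fold change was -0.21 beside -0.01 over all genes. Spry2 and Spry4, which encode Sprouty proteins that block signalling between receptor and RAF, were the 2 higher ones. For Spry2 the vehicle libraries held 82.4 and 66.4 CPM and the tamoxifen libraries 108 and 128 CPM, a log2 fold change of 0.67 ± 0.19 (SE) with an unadjusted p of 0.00867 in edgeR. For Spry4 they held 2.58 and 3.30 CPM against 7.18 and 5.53 CPM, 1.12 ± 0.42 (SE). Both tamoxifen libraries were thus above both vehicle libraries for each gene, by more than 1.5-fold for Spry4 only.

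Spry1, another Sprouty gene, lay on the other side. It measured 14.1 and 15.2 CPM with vehicle and 10.9 and 10.2 CPM with tamoxifen. Errfi1, which encodes an inhibitor of EGF receptors, measured 32.2 and 41.4 CPM against 24.8 and 13.1 CPM, at a log2 fold change of -0.95 ± 0.34 (SE). The Sprouty-related genes Spred2 and Spred3 measured 6.17 and 4.60 against 3.68 and 2.62 CPM, and 1.29 and 1.24 against 0.329 and 0.557 CPM. None of these 4 genes overlapped between the groups. The ERK phosphatase gene Dusp6, a widely used readout of ERK, did overlap: 24.9 and 48.2 CPM with vehicle against 33.2 and 26.3 CPM with tamoxifen. The related nuclear phosphatase gene Dusp4 measured 50.9 and 19.7 CPM against 56.6 and 25.1 CPM, so that library 1 was the high one in each group.

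Among 11 other ERK target genes, with a median log2 fold change of 0.08, 3 lay higher and 3 lower without overlap. That is 27.3% each, beside 19.4% and 20.1% of all genes. Etv5 (chr16:22381309-22439719, minus strand), an ETS transcription factor downstream of FGF and ERK, separated most clearly among those with more than a few counts. Its vehicle libraries held 87.3 and 93.6 CPM and its tamoxifen libraries 150 and 173 CPM. That is 1.78-fold between the means and 1.605-fold between the nearest values, with a log2 fold change of 0.83 ± 0.16 (SE); edgeR gave it a p of 0.0011 before adjustment and an adjusted p of 0.55. DESeq2 called Etv5. The related gene Etv1 was near its floor with vehicle, at 0.0248 and 0.187 CPM (1 and 6 counts), and measured 1.15 and 0.857 CPM with tamoxifen (49 and 20 counts). Etv1 is counted among the 3 higher genes and passed the filter on low counts only through its tamoxifen values.

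The other 4 that did not overlap differed less. Epha4, an Eph receptor, measured 48.97 and 47.6 CPM against 55.4 and 54.0 CPM, higher without overlap by 1.10-fold at the nearest values. Plaur, the urokinase receptor, measured 52.7 and 45.6 CPM against 43.8 and 40.7 CPM. Tnfrsf12a, the TWEAK receptor, measured 18.2 and 22.1 CPM against 16.1 and 9.60 CPM. Cyclin D1, the product of Ccnd1, links ERK to cell cycle entry, and its gene measured 3.69 and 4.39 CPM against 3.05 and 2.27 CPM. These 3 genes were lower without overlap, with gaps of 1.04-fold for Plaur, 1.13-fold for Tnfrsf12a and 1.21-fold for Ccnd1. Phlda1 overlapped, at 37.7 and 13.4 CPM against 33.4 and 20.5 CPM.

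Immediate early genes were mostly lower with tamoxifen. Of 18 tested members, 8 were lower without overlap (44.4%, beside 20.1% of all genes) and 1 was higher. A gap of at least 1.5-fold held for 5 of the 8, and the list's median log2 fold change was -0.28. Dusp1, a nuclear phosphatase of stress-activated kinases and ERK, measured 71.4 and 79.0 CPM with vehicle and 31.7 and 36.4 CPM with tamoxifen. Its groups stood 1.96-fold apart, at a log2 fold change of -1.14 ± 0.19 (SE) and an unadjusted p of 0.000488 in edgeR. The zinc finger factor gene Klf6 (chr13:5861482-5870394, plus strand) measured 363 and 300 CPM against 181 and 164 CPM, a log2 fold change of -0.94 ± 0.16 (SE). Jun (chr4:95049034-95052222, minus strand), a subunit of AP-1, measured 81.4 and 68.2 CPM against 40.9 and 41.2 CPM, -0.87 ± 0.19 (SE). Fos, the partner of Jun in AP-1, measured 63.0 and 95.5 CPM against 41.7 and 16.1 CPM, -1.45 ± 0.44 (SE). Every tamoxifen value of these 4 genes was below every vehicle value. DESeq2 called all 4, but also Phlda2, Tnfrsf9 and Krt7, whose folds rest mostly on 1 vehicle library each. Dusp1 and Jun overlap other annotated transcripts, Ergic1 and Junos among them on the other strand, and without a stated strand setting such reads cannot be told apart.

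The 250 bases before the start site are given for the 3 genes with the smallest unadjusted p on the list, from RefSeq's promoter windows on GRCm38.p6. Capitals mark the motif TGACNTCA, the cAMP response element and its close variants, which binds factors of the ATF, CREB and JUN families.
Jun, chr4:95052223-95052472, minus strand: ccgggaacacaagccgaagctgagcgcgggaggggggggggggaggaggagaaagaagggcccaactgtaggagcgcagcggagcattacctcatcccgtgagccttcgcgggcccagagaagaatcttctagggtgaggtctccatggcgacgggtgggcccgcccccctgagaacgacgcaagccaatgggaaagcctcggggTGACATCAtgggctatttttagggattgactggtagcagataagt
Klf6, chr13:5861239-5861488, plus strand: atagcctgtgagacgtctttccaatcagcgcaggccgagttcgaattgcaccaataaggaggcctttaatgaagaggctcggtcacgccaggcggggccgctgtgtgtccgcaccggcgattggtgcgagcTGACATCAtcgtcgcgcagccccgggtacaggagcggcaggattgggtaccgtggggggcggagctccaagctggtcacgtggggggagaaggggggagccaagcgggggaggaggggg
Dusp1, chr17:26508473-26508722, minus strand: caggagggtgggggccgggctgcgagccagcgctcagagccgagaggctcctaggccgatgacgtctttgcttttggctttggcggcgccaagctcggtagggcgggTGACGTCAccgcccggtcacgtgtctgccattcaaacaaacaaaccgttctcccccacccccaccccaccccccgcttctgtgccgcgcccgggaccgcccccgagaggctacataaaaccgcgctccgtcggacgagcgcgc

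Counted from the annotated start, the match lay at -45 to -38 in Jun, at -119 to -112 in Klf6 and at -143 to -136 in Dusp1. In windows of 300 bases, read on both strands, 4 of the 14 immediate early genes with a RefSeq window held TGACNTCA: these 3 and Btg2. The motif did not follow the direction of the values. Fos and Zfp36, also lower without overlap, held no match, while Btg2 overlapped between the groups. Across 20595 promoters 9.32% held it. Of the feedback inhibitors 0 of 9 with a window held it, and of the other ERK targets 1 of 8, Epha2. The ETS motif CCGGAAG, in 11% of all promoters, stood in 0 of 9 feedback inhibitors, 1 of 8 other targets and 2 of 14 immediate early genes. The AP-1 motif TGANTCA, in 7.39% of promoters and differing from TGACNTCA by 1 base of length, stood in 0 of 14 immediate early genes, 0 of 9 feedback inhibitors and 1 of 8 other targets, Plaur. The CArG box, bound by serum response factor and present in 1.5% of promoters, stood in 2 of 14 immediate early genes, Srf and Zfp36, in 1 of 9 feedback inhibitors, Dusp5, and in 0 of 8 other targets. A match is a description of letters in a short window and not a bound site. The motifs, and the genes shown, were chosen after the values were seen.

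Another 4 immediate early genes lay lower without overlap. Zfp36, whose product destabilises AU-rich messenger RNAs, measured 48.0 and 29.7 CPM with vehicle and 25.6 and 21.7 CPM with tamoxifen. Ier2 measured 128 and 106 CPM against 77.1 and 95.3 CPM. Ier3 and Atf3 were low throughout, at 1.09 and 0.871 against 0.211 and 0.257 CPM for Ier3 and at 0.694 and 2.05 against 0.493 and 0.686 CPM for Atf3. The 1 higher member was Fosl1, which encodes the FRA1 subunit of AP-1, with 1 and 0 counts in the vehicle libraries and 25 and 17 counts in the tamoxifen libraries. Fosl1 passed the filter on low counts only through its tamoxifen values. Egr1, a classic ERK-dependent early gene, overlapped: 2.45 and 8.24 CPM against 12.1 and 5.70 CPM. So did Myc, at 49.4 and 57.3 CPM against 74.3 and 56.4 CPM.

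**Figure D2:**
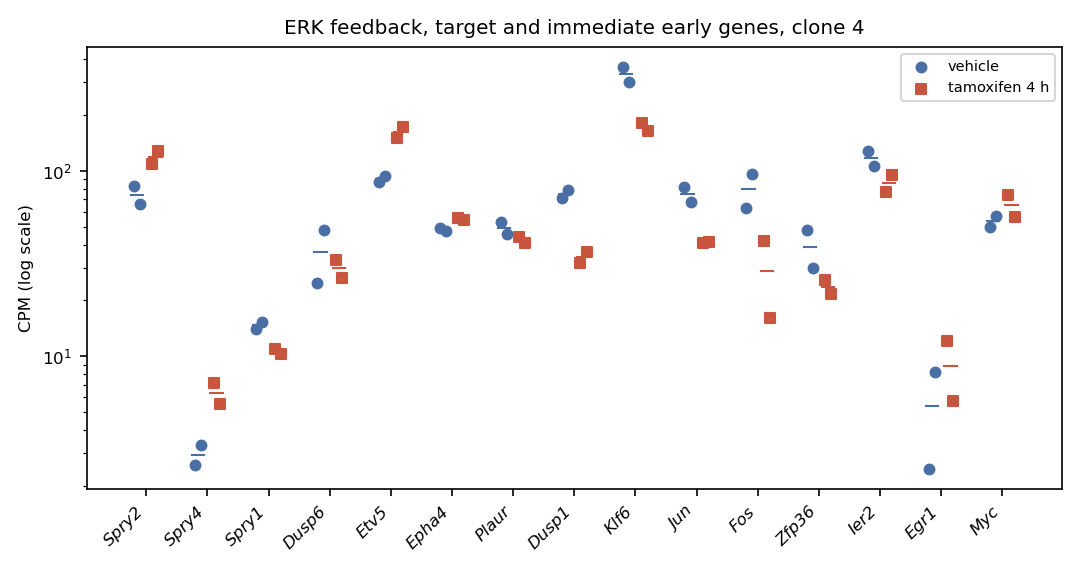
Levels of 15 ERK feedback, target and immediate early genes in CPM on a log axis, with circles for the 2 vehicle libraries, squares for the 2 tamoxifen libraries and a short line at each mean. Spry2, Spry4, Etv5 and Epha4 have both tamoxifen values above both vehicle values, while Spry1, Plaur, Dusp1, Klf6, Jun, Fos, Zfp36 and Ier2 have both below, and Dusp6, Egr1 and Myc overlap.

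Genes of the cascade itself differed little. Of 22 tested, 5 were higher and 5 lower without overlap, none by a gap of 1.5-fold, with a median log2 fold change of 0.08. The RAS gene Nras measured 158 and 131 CPM with vehicle and 187 and 191 CPM with tamoxifen. The exchange factor gene Sos1, at 23.7 and 22.6 against 30.3 and 32.8 CPM, and the RAF kinase gene Braf, at 17.3 and 14.6 against 21.1 and 24.8 CPM, were higher as well. Tamoxifen's usual receptor gene Esr1 measured 5.85 and 1.21 CPM against 1.53 and 1.16 CPM, so that the groups overlapped. Whether counts of the construct enter Esr1 is not given in the sources used here. None of the 5 growth factor genes tested, of 13 listed, separated without overlap.

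Pluripotency genes leaned higher with tamoxifen. In the naive list 6 of 12 genes were higher without overlap (50%, beside 19.4% of all genes). Another 2 were lower (16.7%, beside 20.1%), and the median log2 fold change was 0.22. Prdm14, a repressor of FGF signalling genes in naive cells, measured 23.7 and 38.7 CPM with vehicle and 62.6 and 68.3 CPM with tamoxifen. The groups stood 1.62-fold apart, at a log2 fold change of 1.07 ± 0.26 (SE) and an unadjusted p of 0.00487 in edgeR. Dppa3, a maternal and naive epiblast gene, measured 3715 and 3218 CPM against 4251 and 4594 CPM. Nr0b1 was near its floor with vehicle, at 0.0496 and 0.0311 CPM (2 and 1 counts), and measured 0.587 and 1.11 CPM with tamoxifen (25 and 26 counts). It is counted among the 6 higher genes and passed the filter on low counts only through its tamoxifen values. Nr0b1 too is X-linked. Klf5 went the other way, at 361 and 423 CPM with vehicle and 220 and 247 CPM with tamoxifen, a log2 fold change of -0.75 ± 0.15 (SE). Klf5 is active in both the inner cell mass and the trophectoderm. Nanog, the naive epiblast regulator that ERK represses, overlapped at 427 and 603 CPM against 530 and 636 CPM.

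In the general pluripotency list 6 of 12 were higher without overlap (50%, beside 19.4% of all genes). Another 2 were lower (16.7%, beside 20.1%), and the median was 0.20. Utf1 (chr7:139943789-139945112, plus strand), a chromatin factor of pluripotent cells, measured 216 and 240 CPM with vehicle and 368 and 406 CPM with tamoxifen. The groups stood 1.53-fold apart at a log2 fold change of 0.76 ± 0.14 (SE), and edgeR's unadjusted p was 0.00108. The TGF-beta family gene Gdf3 measured 57.7 and 69.4 CPM against 99.1 and 113 CPM, 0.74 ± 0.18 (SE). Tdgf1, which encodes the Nodal coreceptor Cripto, measured 291 and 417 CPM against 522 and 804 CPM, 0.91 ± 0.25 (SE). Trim71 measured 36.7 and 37.1 CPM against 50.5 and 52.9 CPM. In these 4 genes both tamoxifen libraries were above both vehicle libraries.

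Lin28a, an RNA-binding protein gene that blocks let-7 maturation, was lower, at 77.3 and 43.8 CPM against 33.9 and 17.1 CPM. The core factor genes did not separate: Pou5f1 measured 572 and 547 CPM against 551 and 510 CPM, and Sox2, whose regulatory sequence drives the Cre, 12.5 and 17.7 CPM against 16.4 and 18.3 CPM. The summed level of the 12 epiblast markers was 2284 and 2798 CPM with vehicle and 2834 and 3266 CPM with tamoxifen. Formative genes, which mark the step from naive to primed epiblast, gave 1 higher and 1 lower of 9 tested and a median of -0.38. Dnmt3b, a de novo DNA methyltransferase gene, measured 184 and 244 CPM against 176 and 108 CPM, while Otx2 overlapped at 31.0 and 23.6 CPM against 22.2 and 38.7 CPM. Foxd3, at 0.446 and 1.31 against 2.14 and 2.06 CPM, was the higher one.

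**Figure D3:**
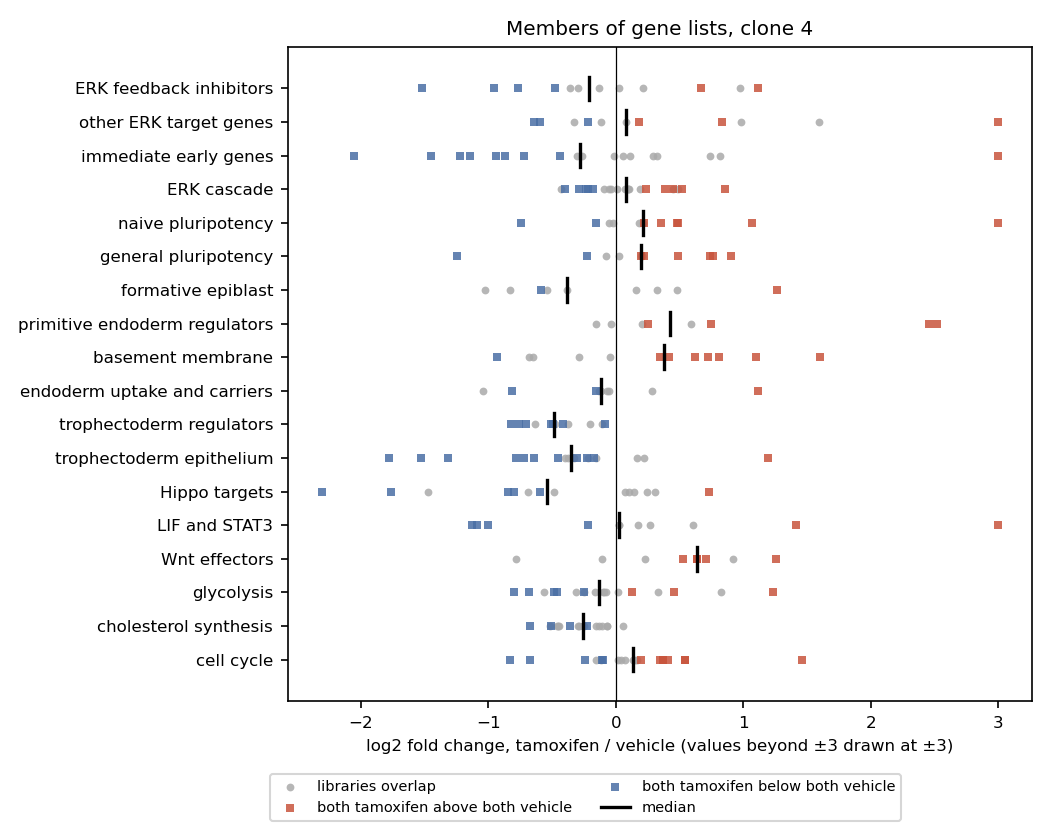
Log2 fold change, tamoxifen over vehicle, of every tested member of 18 gene lists, coloured by whether its 4 clone 4 libraries separate; the black bar is the list's median. The basement membrane list has 7 of 12 members higher without overlap and 1 lower, and the trophectoderm epithelium list 10 of 18 lower and 1 higher. Over all genes, 19.4% are higher and 20.1% lower without overlap.

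The medians of several lists rest on 1 library. Without vehicle library 1, the median log2 fold change was -0.15 for immediate early genes, 0.15 for naive and 0.11 for general pluripotency genes, 0.29 for primitive endoderm regulators, 0.32 for basement membrane genes, -0.64 for trophectoderm regulators, -0.33 for trophectoderm epithelium, 0.35 for Wnt effectors, -0.06 for glycolysis and -0.01 for Hippo genes. Without vehicle library 2 the same lists stood at -0.24, 0.34, 0.39, 0.64, 0.55, -0.27, -0.50, 0.85, -0.19 and -0.12. Without tamoxifen library 1 they were -0.28, 0.31, 0.27, 0.79, 0.55, -0.61, -0.50, 0.38, -0.24 and -0.52, and without tamoxifen library 2 -0.55, 0.12, 0.15, 0.27, 0.18, -0.41, -0.28, 0.56, -0.17 and -0.39. With the clone 8 tamoxifen libraries added to the tamoxifen group they were -0.065, 0.12, 0.19, 0.54, 0.11, -0.39, -0.32, 0.46, -0.19 and -0.11. These 10 medians thus kept their sign in each of the 5 fits, while each but that of trophectoderm epithelium moved by more than 1.5 times in at least 1 of them; the Hippo median turned to 0.08 when genes averaging fewer than 50 counts were left out. The medians of the feedback inhibitors (-0.53 and 0.39), other ERK targets (0.20 and -0.25), the cascade (-0.003 and 0.18), cholesterol synthesis (-0.57 and 0.15) and the cell cycle (0.28 and -0.07) had opposite signs without vehicle library 1 and without vehicle library 2.

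Primitive endoderm regulators showed 4 of 8 tested members higher without overlap (50%, beside 19.4% of all genes) and none lower. Their median log2 fold change was 0.42. Sox17, an endoderm transcription factor, measured 0.297 and 4.23 CPM with vehicle (12 and 136 counts) and 16.8 and 7.76 CPM with tamoxifen (716 and 181 counts). The vehicle libraries differed more from each other for Sox17 than the nearest values of the 2 groups did, and the log2 fold change was 2.46 ± 1.01 (SE), or 1.55 without vehicle library 1 and 5.37 without vehicle library 2. Gata4 measured 1.29 and 0.871 CPM against 2.00 and 1.63 CPM. Gata6, which acts at the head of the endoderm programme and responds to FGF signalling, measured 61.7 and 56.7 CPM against 71.3 and 69.7 CPM, a gap of 1.13-fold. Another pair of early endoderm genes overlapped. Pdgfra, a receptor of primitive endoderm cells, measured 26.5 and 44.9 CPM against 28.1 and 54.2 CPM, and Hnf4a 6.05 and 20.2 CPM against 13.7 and 25.9 CPM.

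The basement membrane genes had the largest share of higher members among the endoderm lists, 7 of 12 without overlap and 1 lower, with a median log2 fold change of 0.38. The other 4 overlapped, and 5 of the 12 had a negative log2 fold change, down to -0.93. The genes described here are all from the higher side. Lama1 (chr17:67697259-67822647, plus strand), the laminin alpha 1 chain of the embryo's first laminin, measured 3.92 and 5.19 CPM with vehicle and 11.5 and 16.2 CPM with tamoxifen. Its means differed 3.04-fold and its nearest values 2.21-fold, at a log2 fold change of 1.601 ± 0.36 (SE) and an unadjusted p of 0.00277 in edgeR. Lamc1, the gamma 1 chain that shares the trimer, measured 30.7 and 41.2 CPM against 58.1 and 60.3 CPM, and Lama5 58.2 and 65.9 CPM against 96.3 and 94.5 CPM. Col4a2, a type IV collagen chain, measured 12.2 and 16.2 CPM against 32.6 and 28.3 CPM, 1.10 ± 0.26 (SE). Its partner Col4a1 measured 19.6 and 36.5 CPM against 47.5 and 50.6 CPM, 0.81 ± 0.31 (SE). Both collagen chains form 1 heterotrimer, and both genes were higher in every tamoxifen library than in any vehicle library.

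Col4a1 and Col4a2 lie head to head on chromosome 8 and start within 21 bases of each other on opposite strands in RefSeq's windows, so they are shown as the 1 stretch they share. It runs from the Col4a2 start to the Col4a1 start, on the plus strand.
Col4a1 and Col4a2 starts, chr8:11312805-11312826: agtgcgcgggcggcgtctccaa
The windows of 300 bases around the 2 starts have 78 bases in common and hold none of the motifs searched, ETS, AP-1, the cAMP response element and its variants, and the CArG box. Counts from the 2 opposite first exons cannot be told apart where they overlap, since the strand setting of the counting is not given in the sources used here.

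Genes for endoderm uptake and carriers did not share a direction, with 1 higher and 2 lower of 9 and a median of -0.11. That is 11.1% and 22.2%, beside 19.4% and 20.1% of all genes. Cubn and Lrp2 encode cubilin and megalin, which work together in taking up proteins in the visceral endoderm. Cubn measured 4.71 and 4.85 CPM with vehicle and 11.8 and 8.87 CPM with tamoxifen, whereas Lrp2 measured 397 and 382 CPM against 231 and 212 CPM. The gaps were 1.83-fold and 1.65-fold, in opposite directions, and the unadjusted p of Lrp2 was 0.000551 in edgeR. Dab2, their adaptor, measured 766 and 638 CPM against 624 and 633 CPM.

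Trophectoderm genes were mostly lower with tamoxifen, and they are genes of a layer that immunosurgery is meant to remove. Among regulators 7 of 12 were lower without overlap (58.3%, beside 20.1% of all genes) and none higher. The median log2 fold change was -0.48. Elf3 (chr1:135253575-135258568, minus strand), an epithelial ETS factor, measured 841 and 856 CPM with vehicle and 550 and 450 CPM with tamoxifen, a log2 fold change of -0.76 ± 0.15 (SE). Gata3 measured 985 and 827 CPM against 686 and 604 CPM, and Cdx2, the trophectoderm master regulator, 518 and 484 CPM against 431 and 323 CPM. Tfap2a measured 26.9 and 40.1 CPM against 19.6 and 18.2 CPM, and Id2, an early marker of outer cells, 756 and 837 CPM against 600 and 377 CPM. All 5 were lower in both tamoxifen libraries, while another 5 of the 12 regulators overlapped.

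Of 18 epithelial genes of the trophectoderm, 10 were lower without overlap (55.6%, beside 20.1% of all genes). Another 1 was higher (5.56%, beside 19.4%), and the median was -0.35. Besides Tmprss2, given above, the tight junction gene Cldn6 measured 170 and 194 CPM with vehicle and 91.1 and 54.7 CPM with tamoxifen, a log2 fold change of -1.32 ± 0.25 (SE). The water channel gene Aqp3 measured 582 and 594 CPM against 399 and 356 CPM, and the desmosome gene Pkp2 27.7 and 34.6 CPM against 18.9 and 17.3 CPM. Krt7 measured 71.1 and 21.6 CPM against 16.7 and 10.2 CPM, with vehicle library 1 far above the rest; without it the log2 fold change of Krt7 was -0.67 in place of -1.78. The keratin genes that make up the bulk of the marker sum overlapped: Krt8 measured 3832 and 2584 CPM against 2635 and 2310 CPM, and Krt18 4121 and 2768 CPM against 2850 and 2380 CPM. For both, vehicle library 2 lay between the 2 tamoxifen libraries. The part of differing trophectoderm remnants between the pools of 10 was not tested.

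**Figure D4:**
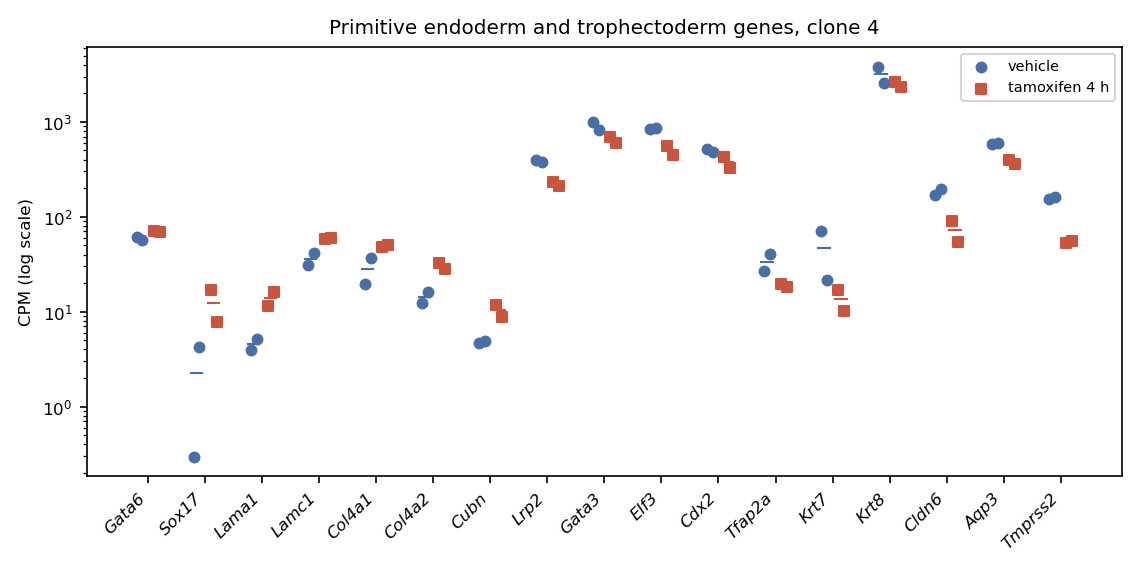
Levels of 8 primitive endoderm and basement membrane genes and 9 trophectoderm genes in CPM on a log axis, with circles for vehicle, squares for tamoxifen and a short line at each mean. The laminin and collagen genes shown lie higher with tamoxifen and Lrp2 lower. Over the full basement membrane list, 7 of 12 genes were higher and 1 lower without overlap, and 5 of the 12 had a negative log2 fold change. Of 8 primitive endoderm regulators tested, 4 were higher without overlap and 4 overlapped. Over all genes 19.4% were higher without overlap. Of the 9 trophectoderm genes shown, 8 have both tamoxifen values below both vehicle values, the exception being Krt8. Over the full lists, 7 of 12 trophectoderm regulators and 10 of 18 epithelial genes were lower without overlap, beside 20.1% of all genes.

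Genes around the Hippo pathway, which separates outer from inner cells, gave 1 higher (7.14%) and 5 lower (35.7%) of 14 and a median of -0.54. Of all genes 19.4% were higher and 20.1% lower without overlap. Tead1, a DNA-binding partner of YAP, measured 20.3 and 24.0 CPM with vehicle and 34.9 and 38.5 CPM with tamoxifen. The YAP target Ccn1, also an early response gene, measured 49.5 and 46.9 CPM against 33.7 and 19.9 CPM. In the LIF and STAT3 list 2 of 11 were higher (18.2%) and 4 lower (36.4%). Il6st, which encodes the gp130 receptor chain, measured 8.50 and 12.8 CPM against 23.5 and 33.3 CPM, a log2 fold change of 1.41 ± 0.32 (SE) with a gap of 1.83-fold. Its ligand gene Lif measured 11.7 and 20.2 CPM against 7.93 and 6.65 CPM, and Socs3, the feedback inhibitor of the pathway, 31.8 and 35.9 CPM against 11.1 and 22.9 CPM. The receptor was thus higher, and the ligand and the inhibitor lower, without overlap.

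Wnt effector genes were higher without overlap in 5 of 9 tested cases (55.6%, beside 19.4% of all genes) and lower in none. The median log2 fold change was 0.63. Of the 13 listed, 4 did not pass the filter on low counts: Sp5, Lef1, Lgr5 and Rnf43. Tcf7l1, a repressor at Wnt targets in pluripotent cells, measured 2.45 and 3.14 CPM with vehicle and 6.41 and 6.99 CPM with tamoxifen, and Tcf7l2 81.8 and 126 CPM against 154 and 169 CPM. The receptor gene Lgr4 measured 6.96 and 8.74 CPM against 10.7 and 12.0 CPM, and Znrf3, which removes Wnt receptors, 7.14 and 9.08 CPM against 16.4 and 10.1 CPM. The vehicle pair of Tcf7l2 differed by more than the nearest values of the groups.

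Of the BMP list 3 of 9 were higher (33.3%) and 2 lower (22.2%) without overlap, beside 19.4% and 20.1% of all genes. Id3, a BMP target that holds back differentiation, measured 113 and 89.7 CPM with vehicle and 153 and 167 CPM with tamoxifen, a log2 fold change of 0.66 ± 0.17 (SE), while Id2 was lower as given above. In the Nodal list 2 of 9 were higher (22.2%), Tdgf1 with them, and 3 lower (33.3%). The convertase gene Furin measured 33.4 and 34.1 CPM against 25.9 and 20.5 CPM, and Smad7, an inhibitor of the receptors, 34.9 and 43.5 CPM against 30.2 and 26.8 CPM. In the Notch list 1 of 8 was higher and 1 lower (12.5% each). Notch2 measured 4.39 and 2.77 CPM against 7.96 and 7.33 CPM.

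In glycolysis 5 of 17 genes (29.4%, beside 20.1% of all genes) were lower without overlap and 3 higher, with a median log2 fold change of -0.16. Hk2, the inducible hexokinase, measured 274 and 258 CPM with vehicle and 171 and 134 CPM with tamoxifen, -0.80 ± 0.17 (SE), and the glucose transporter gene Slc2a1 181 and 133 CPM against 107 and 89.0 CPM. Pfkl measured 28.0 and 30.9 CPM against 21.3 and 21.5 CPM, and the lactate exporter gene Slc16a3, of few counts, 1.04 and 1.21 CPM against 2.28 and 3.04 CPM. Cholesterol synthesis and uptake genes gave 4 of 19 lower (21.1%, close to the share of all genes) and none higher, with a median of -0.26 that turned to 0.15 without vehicle library 2. Stard4, a sterol carrier, measured 59.7 and 67.0 CPM against 43.0 and 36.3 CPM, and the sterol sensor gene Insig1 188 and 289 CPM against 155 and 180 CPM.

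Cell cycle genes split, with 8 of 21 higher (38.1%) and 5 lower (23.8%) without overlap, beside 19.4% and 20.1% of all genes. Cyclin E1, encoded by Ccne1, drives entry into S phase, and its gene measured 85.9 and 73.8 CPM with vehicle and 49.4 and 40.2 CPM with tamoxifen. The replicative helicase genes Mcm5, at 254 and 255 against 328 and 331 CPM, and Mcm2, at 299 and 293 against 368 and 384 CPM, were higher. For both helicase genes the replicates of each group were within a few percent of each other. Uhrf1, which carries DNA methylation through replication, measured 180 and 204 CPM against 278 and 353 CPM, 0.72 ± 0.17 (SE), whereas Dnmt3l, a cofactor of de novo methylation, measured 60.9 and 73.6 CPM against 46.9 and 26.3 CPM. The DNA methylation and Polycomb list held 3 higher and 4 lower of 14.

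Survival and stress lists did not share a direction. Their counts stand beside 19.4% higher and 20.1% lower without overlap over all genes. Bcl2l11, which encodes the death-promoting BIM protein, a protein that ERK marks for degradation, measured 18.6 and 14.4 CPM with vehicle and 8.47 and 6.99 CPM with tamoxifen, a log2 fold change of -1.09 ± 0.31 (SE). The p53 target Pmaip1, another death-promoting gene of the family, measured 55.3 and 26.3 CPM against 77.6 and 76.9 CPM. The Bcl2 family as a list held 2 higher and 3 lower of 10, and p53 targets 2 higher and 1 lower of 12. Atf4, the effector of the integrated stress response, measured 187 and 196 CPM against 125 and 146 CPM, with 1 higher and 1 lower of 11 in its list. The chaperone gene Hsp90b1 measured 361 and 493 CPM against 308 and 297 CPM, with 1 higher and 2 lower of 12 among heat shock and endoplasmic reticulum stress genes.

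The remaining lists gave less, beside 19.4% higher and 20.1% lower without overlap over all genes. Targets of serum response factor and actin genes held 1 higher and 3 lower of 12. Estrogen receptor and tamoxifen-related genes held 1 higher and 1 lower of 7; the coactivator gene Ncoa3 measured 251 and 303 CPM with vehicle and 309 and 364 CPM with tamoxifen. Of 13 genes of the 2-cell stage 4 had enough counts, with 1 higher and 2 lower. Pecam1, an endothelial gene that the naive epiblast also expresses, measured 86.5 and 138 CPM against 169 and 234 CPM.

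Clone 8 has 2 tamoxifen libraries and 1 vehicle library, which holds few short transcripts. Over all 7 libraries, the interaction of clone with condition was called for 537 of 19353 genes (2.77%), and 533 of them were higher in clone 8. Of the called genes 75.8% had a typical transcript under 1000 nt, against 19.4% of all tested, and 41 of them had an unadjusted p under 0.05 in clone 4. Leaving out 1 clone 4 library gave 363 (vehicle library 1), 528 (vehicle library 2), 197 (tamoxifen library 1) and 154 (tamoxifen library 2) called genes; without tamoxifen library 1 or 2 of clone 8 there were 388 and 749. On the joint scale of 7 libraries, several genes that were lower in clone 4 stood in clone 8 near the level of clone 4 with tamoxifen, in the vehicle library too. Dusp1 measured 29.1 CPM in the clone 8 vehicle library and 35.8 and 34.8 CPM in its tamoxifen libraries. Klf6 measured 195 CPM against 175 and 182 CPM, Tmprss2 68.1 CPM against 80.2 and 56.6 CPM, and Efna1 8.97 CPM against 13.98 and 9.08 CPM. For these 4 genes the 2 vehicle libraries of clone 4 were thus above the other 5 libraries.

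Other genes pointed the same way in both clones. In clone 8 Spry2 measured 45.2 CPM with vehicle and 123 and 110 CPM with tamoxifen, Sox17 4.32 CPM against 27.1 and 19.0 CPM, and Lama1 3.49 CPM against 8.43 and 6.80 CPM. Gata3, at 967 CPM against 680 and 705 CPM, and Id3, at 105 CPM against 143 and 190 CPM, did so as well. Differences between the clones in these 5 genes had adjusted interaction p-values in edgeR of 0.413 for Spry2, 0.799 for Lama1 and 0.9999 for each of Sox17, Gata3 and Id3. Etv5, at 108 CPM against 92.3 and 119 CPM, and Col4a2, at 38.6 CPM against 34.5 and 32.5 CPM, were not higher with tamoxifen in clone 8, with adjusted interaction p-values of 0.267 for Etv5 and 0.188 for Col4a2 that do not show a difference between the clones. Every clone 8 fold change rests on its single vehicle library.

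**Figure D5:**
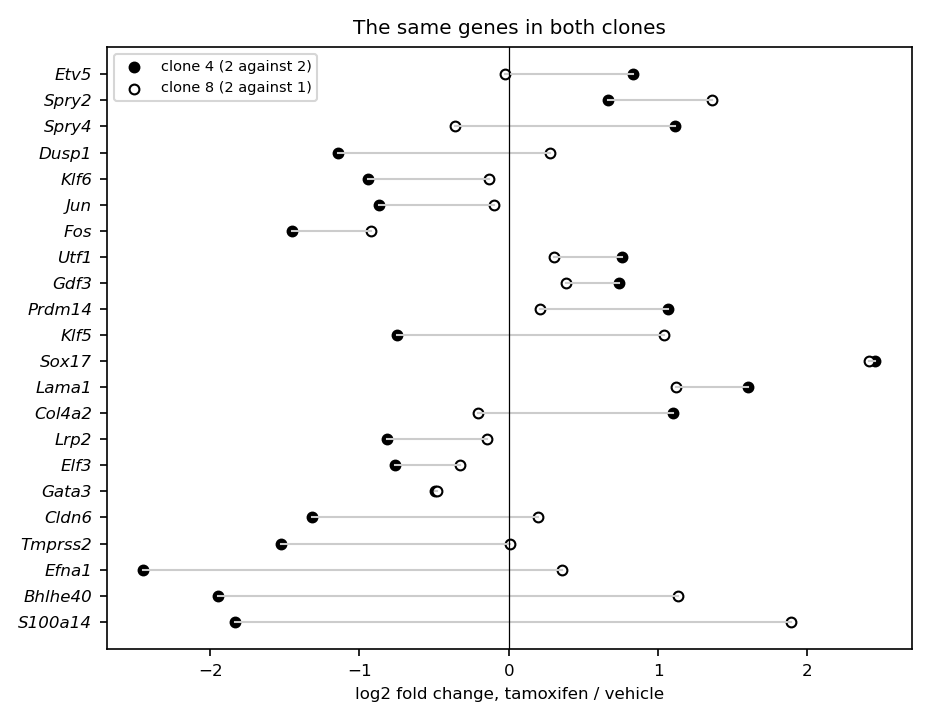
Log2 fold change, tamoxifen over vehicle, of 22 named genes in clone 4 (filled circles, 2 libraries against 2) and clone 8 (open circles, 2 against 1), joined by a grey line. Sox17, Lama1, Spry2 and Gata3 have the same sign in both clones, whereas Klf5, Dusp1, Bhlhe40, S100a14 and Efna1 are below 0 in clone 4 and above 0 in clone 8.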

How the data were processed

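Total RNA of pooled inner cell masses was sequenced, and the authors deposited 1 table of raw read counts per gene for all 7 libraries (52636 genes). The submitters' processing notes name bcl2fastq 2.19.1, STAR 2.5.3a and the build mm10; the counter and its strand setting are not given in the sources used here. Groups came from the labels. Names and coordinates are from GENCODE M21 on GRCm38 (52489 genes matched), and promoter windows from RefSeq on GRCm38.p6.

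The 4 clone 4 libraries were fitted on their own in edgeR 4.0.16 (filterByExpr by condition, TMM, quasi-likelihood F-test), with Benjamini-Hochberg adjustment over 16060 genes and a threshold of 0.05. Counts of between 22981498 and 42294719 per library keep counting error small for genes above a few CPM. No 2 libraries of a group agreed within sampling noise (chi-square per degree of freedom 68.6 for the vehicle pair and 23.9 for the tamoxifen pair). On simulated counts for the same 16060 genes, 200 of those averaging at least 10 CPM were changed. The test recovered 39% of 2-fold, 97% of 4-fold and 100% of 8-fold changes, with 11, 9 and 15 false calls. Simulated counts varied independently at the dispersions fitted to these libraries. The recovered shares thus do not cover genes of lower level and do not exclude changes of these sizes in the real libraries. Nor are they the power of the test there. In the real libraries edgeR called 0 genes, with a smallest adjusted p of 0.201. Efna1, whose change was more than 4-fold, was among those not called. The interaction of clone and condition was fitted over all 7 libraries. DESeq2 1.42.0, another normalization, other filters on low counts, thinning, a replicate block, all libraries in 1 fit, added clone 8 tamoxifen libraries and leaving out each library were alternatives; whether values overlap was not computed with 1 library in a group.

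Named genes could be any member of the 3 ERK output lists, Esr1 and Sox2, of every other list up to 4 members with the widest gap and up to 2 overlapping ones of highest CPM, and the 8 protein-coding genes with the largest and the 8 with the smallest fold change among those with an unadjusted p under 0.05, a gap of at least 1.5-fold and 10 CPM. Col4a1, Cdx2 and Krt7 were named after their values were seen. Some results that this rule allows are not reported here. The members and the 31 lists were chosen with earlier results of these data known. Of 423 listed genes 358 passed the filter on low counts, which a gene high in either condition can pass.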

Additional observations from a re-analysis of the deposited data

Results flagged for a closer look

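The difference between tamoxifen and vehicle was itself different in clone 8 for 537 genes, by the interaction of clone and condition in edgeR at an adjusted p under 0.05. Among the genes named here, 4 were in that set, with clone 8 minus clone 4 differences in log2 fold change of 3.08 for Bhlhe40, 2.81 for Efna1, 1.79 for Klf5 and 3.72 for S100a14. Bhlhe40 measured 7.69 CPM in the clone 8 vehicle library and 22.4 and 11.4 CPM in its tamoxifen libraries. S100a14 measured 2.35 CPM against 9.76 and 7.68 CPM, and Klf5 242 CPM against 432 and 566 CPM. For Bhlhe40, Efna1 and S100a14 the 2 vehicle libraries of clone 4 were above the other 5 libraries; for Klf5 they were not. Each of these differences rests on the 1 vehicle library of clone 8, in which short transcripts are low, and the part of that library was not tested.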

How the results depend on the processing

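Directions of the 113 named genes were unchanged with RLE size factors, no filter, a mean count minimum of 50 (106 genes with a value), DESeq2, all 7 libraries in 1 fit, thinning and the replicate block, and 2 changed sign with the clone 8 tamoxifen libraries added: Ccnd1 to 0.31 and Nanog to -0.0012 (log2). Genes called numbered 217 with no filter, 2 with a mean count minimum of 50, 140 with DESeq2 and 0 to 309 when 1 library was left out. Genes with an unadjusted p under 0.05 numbered 2000 with no filter and 552 to 2729 with 1 library left out. Gaps of at least 1.5-fold numbered 1304 higher and 1251 lower with no filter, and 256 and 217 with a mean count minimum of 50. The interaction gave 991 genes with no filter, 1001 with DESeq2 and 154 to 749 with 1 library left out.

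Same-numbered libraries did not deviate together (r = 0.038), so the numbers were not taken to pair them; with the replicate block 0 genes were called and 1348 had an unadjusted p under 0.05, and the interaction gave 654. List medians changed sign in 14 of 248 such values: with the block for ERK feedback inhibitors (0.10), formative genes (0.074) and the Bcl2 family (0.059), with a mean count minimum of 50 for Hippo genes (0.079), 2-cell stage genes (0.53), other ERK targets (-0.16) and the Bcl2 family (0.021), with thinning for other ERK targets (-0.056), the Bcl2 family (0.00093) and DNA methylation and Polycomb (0.014), and with the clone 8 tamoxifen libraries added for Nodal (0.070), endoderm uptake (0.036), the integrated stress response (-0.073) and the Bcl2 family (0.086).

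With 1 library left out, medians ranged from -1.21 to 0.016 for 2-cell stage genes, -0.11 to 0.25 for BMP and Id, -0.25 to 0.21 for the Bcl2 family, -0.0030 to 0.18 for the ERK cascade, -0.53 to 0.39 for ERK feedback inhibitors, -0.24 to 0.012 for Nodal, -0.33 to 0.49 for Notch, -0.066 to 0.28 for the cell cycle, -0.34 to 0.58 for cells from outside the embryo, -0.57 to 0.15 for cholesterol synthesis, -0.27 to 0.10 for endoderm uptake, -0.26 to 0.15 for estrogen receptor genes, -0.60 to 0.19 for formative genes, -0.73 to 0.51 for growth factors, -0.27 to 0.20 for other ERK targets, -0.22 to 0.34 for LIF and STAT3, -0.43 to 0.48 for the integrated stress response, -0.30 to 0.17 for heat shock and endoplasmic reticulum stress, -0.20 to 0.076 for DNA methylation and Polycomb and -0.068 to 0.091 for p53 targets. Among genes the ranges were -0.49 to 1.06 for Dusp4, -0.69 to 0.27 for Dusp6, -2.10 to 0.15 for Esr1, -0.035 to 1.71 for Hnf4a, -0.047 to 0.46 for Nanog, -0.30 to 0.50 for Otx2, -0.34 to 0.64 for Pdgfra, -0.47 to 1.02 for Phlda1 and -0.022 to 0.48 for Sox2. The cause of these changes was not tested. Depth limits genes of a few counts, such as Fosl1, Etv1 and Nr0b1, whose folds depend on the prior count.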
